A study of Homo sapiens with 24 samples.

Results

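The 40 genes described here act at the start of the DNA synthesis phase of the cell cycle, from the switches of the G1/S transition to the proteins that copy the genome. They were chosen by symbol from a table of 34213 genes counted in HEL cells, and all 40 were among the 16076 genes with enough counts to be tested. HEL is a human erythroleukaemia cell line that carries an activating mutation of the kinase JAK2. Its cells were treated with 1 of 5 JAK inhibitors at 500 nM, which were ruxolitinib, fedratinib, momelotinib, pacritinib and itacitinib, or with DMSO, the solvent control, for 4 h or 48 h. The design has 12 groups of 2 RNA-seq libraries each, 24 in all. The JAK2 mutation is shared by treated and control cells. All libraries come from this 1 line at 1 dose. The labels do not say whether the 2 libraries of a group came from separate cultures. The p-values thus reflect no more than the spread between libraries of the same group, estimated over all 12 groups. That spread may be technical.

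Cells commit to copying their DNA when cyclin E, encoded by CCNE1 and CCNE2, and its kinase partner CDK2 release the E2F transcription factors from the retinoblastoma proteins. E2F factors then drive the genes of the replication machinery. In G1 the origin recognition complex, CDC6 and CDT1 load the MCM helicase ring onto origins. CDC45, the GINS complex and MCM10 later turn that ring into an active helicase. Primase and polymerase alpha start each strand, the RFC complex loads the sliding clamp PCNA, and polymerases delta and epsilon extend. FEN1 and LIG1 join the lagging strand fragments, while ribonucleotide reductase (RRM1 and RRM2) and thymidylate synthase (TYMS) supply nucleotides. JAK2 signalling through STAT factors drives the proliferation of erythroid precursors.

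Total counts ran from 32153866 to 56618281 per library, and levels below are given as CPM, counts scaled to library size with TMM factors. Of 14 erythroid and megakaryocytic markers, 13 were measured well enough to test, with a summed level between 3950 and 5650 CPM, and GP1BB was listed at 0 in every library. The 3 T cell markers summed to at most 1.67 CPM, the 3 epithelial markers to 1.16 CPM and the 3 fibroblast markers to 1.19 CPM. The 3 B cell markers summed to at most 7.84 CPM. The structural RN7SL RNAs took 3.84% and 3.95% of counts in the pacritinib libraries at 4 h, against 2.42% and 2.52% in DMSO. The other inhibitors at 4 h were above DMSO too. The shares were 3.2% and 3.01% with ruxolitinib, 3.33% and 2.8% with fedratinib, 3.98% and 3.25% with momelotinib and 3.33% and 3.57% with itacitinib. At 48 h the RN7SL RNAs took 3.92% and 3.99% with ruxolitinib, 4.52% and 4.76% with pacritinib and 4.67% and 4.42% with fedratinib, against 3.05% and 3.36% in DMSO. With momelotinib at 48 h they took 4.01% and 3.78%, and with itacitinib 3.97% and 3.1%. Their part in the results below was not tested.

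Levels differed widely among the 40 genes. On the RPKM scale, which divides by exon length, MCM3 had the highest median over the 24 libraries, 118 RPKM, followed by MCM2 with 113 RPKM and PCNA with 97.5 RPKM. The cyclin E genes were near the bottom, with a median of 7.13 RPKM for CCNE1 and 3.09 RPKM for CCNE2, next to the GINS subunit GINS3 with 3.23 RPKM. The ranges of neighbours overlapped: MCM3 ran from 106 to 133 RPKM and MCM2 from 99.2 to 125 RPKM. The cyclin E genes also had wide ranges, from 3.83 to 9.56 RPKM for CCNE1 and from 1.21 to 4.22 RPKM for CCNE2. Summed over all 40 genes, the level was 5784 and 5763 CPM with pacritinib at 4 h, against 5854 and 5954 CPM in DMSO at 4 h. The sum was 6141 and 6172 CPM with ruxolitinib at 48 h, against 5848 and 5771 CPM in DMSO at 48 h. Itacitinib at 48 h had the lowest sums of the series, 5560 and 5564 CPM.

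**Figure D1:**
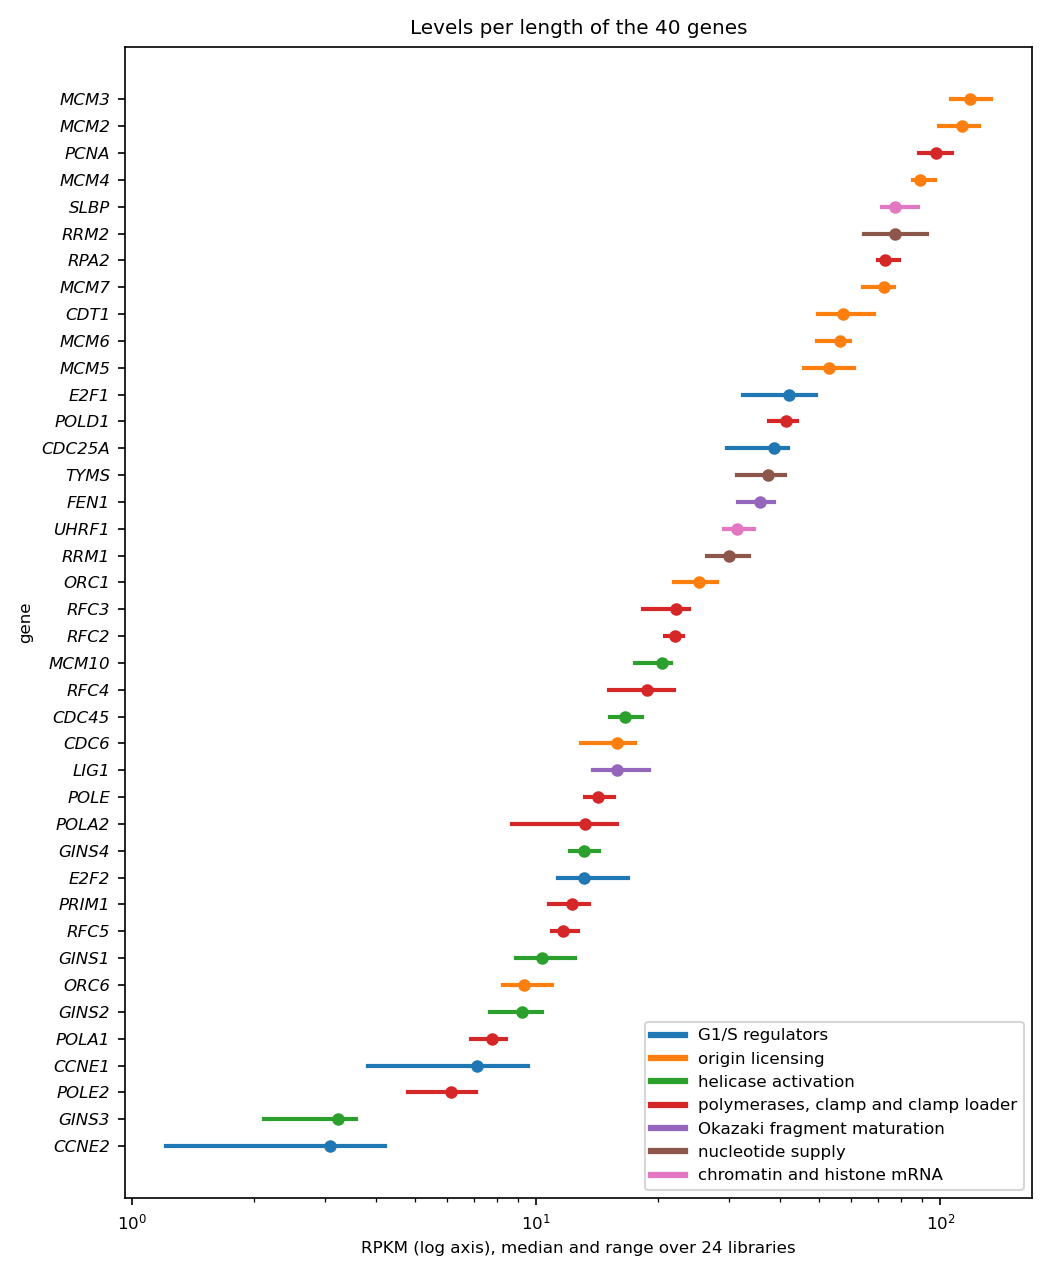
Level of each of the 40 genes on the RPKM scale (log axis), with points for the median and lines for the range over the 24 libraries. MCM3 is the highest at a median of 118 RPKM and CCNE2 the lowest at 3.09 RPKM.

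Promoter windows from RefSeq (GRCh38.p14, 250 bases before to 50 bases after the transcription start) were at hand for 35 of the 40 genes, in 44 windows because some genes have several starts. The letters TTTCCCGC, TTTGGCGC, TTTCGCGC or TTTGCCGC, 4 forms of the E2F motif, were searched on both strands. At least 1 of them lay in 22 of the 44 windows (50%), against 3.31% of all 35116 windows of that length. Counted by gene, 21 of 35 members held one (60.0%), against 6.23% of the tested genes with a window. The shorter CCAAT box (CCAAT, both strands) lay in 59.1% of the members' windows and 34.6% of all windows. Windows of 5 genes whose values are described below are printed 5′ to 3′ on the gene's strand, with the E2F letters in capitals. They are the E2F1 window on the minus strand at chr20:33686336-33686635, the E2F2 window on the minus strand at chr1:23531184-23531483, the CDC25A window on the minus strand at chr3:48188368-48188667, the POLA2 window on the plus strand at chr11:65261712-65262011 and the LIG1 window on the minus strand at chr19:48170295-48170594.
E2F1: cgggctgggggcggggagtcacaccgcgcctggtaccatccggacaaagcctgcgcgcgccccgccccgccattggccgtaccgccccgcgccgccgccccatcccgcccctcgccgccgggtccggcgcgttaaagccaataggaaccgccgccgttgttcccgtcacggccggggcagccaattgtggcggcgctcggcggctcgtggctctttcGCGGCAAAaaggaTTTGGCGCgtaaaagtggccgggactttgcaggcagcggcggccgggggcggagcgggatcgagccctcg
E2F2: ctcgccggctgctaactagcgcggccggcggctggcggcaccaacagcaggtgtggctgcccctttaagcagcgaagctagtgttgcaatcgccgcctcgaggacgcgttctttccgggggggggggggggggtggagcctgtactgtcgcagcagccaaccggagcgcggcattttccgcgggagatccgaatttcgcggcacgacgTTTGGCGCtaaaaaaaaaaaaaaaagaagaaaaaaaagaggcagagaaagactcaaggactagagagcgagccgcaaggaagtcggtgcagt
CDC25A: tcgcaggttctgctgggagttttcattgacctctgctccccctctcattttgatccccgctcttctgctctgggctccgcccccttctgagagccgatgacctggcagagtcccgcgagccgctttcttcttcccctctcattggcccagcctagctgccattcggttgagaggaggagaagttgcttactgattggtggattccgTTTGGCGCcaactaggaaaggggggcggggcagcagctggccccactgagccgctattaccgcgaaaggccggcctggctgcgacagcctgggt
POLA2: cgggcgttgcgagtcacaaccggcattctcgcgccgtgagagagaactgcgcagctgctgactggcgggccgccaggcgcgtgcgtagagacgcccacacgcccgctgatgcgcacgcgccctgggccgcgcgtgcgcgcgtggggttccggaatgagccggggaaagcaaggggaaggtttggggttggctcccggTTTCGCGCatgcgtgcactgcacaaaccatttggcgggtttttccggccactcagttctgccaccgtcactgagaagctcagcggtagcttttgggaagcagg
LIG1: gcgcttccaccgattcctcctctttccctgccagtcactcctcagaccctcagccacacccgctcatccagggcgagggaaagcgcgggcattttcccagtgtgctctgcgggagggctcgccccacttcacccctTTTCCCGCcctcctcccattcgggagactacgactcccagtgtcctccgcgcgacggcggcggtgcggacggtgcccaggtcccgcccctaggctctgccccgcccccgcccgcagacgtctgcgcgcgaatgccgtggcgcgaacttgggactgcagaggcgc
E2F1 held 2 matches, one on each strand, and the other 4 windows held 1 each, on the gene's own strand. The CCNE1, RRM2 and SLBP windows held none of these letters, which says only that they are absent from these windows. Among genes lowered by pacritinib at 4 h, 8 of 13 with a window held a match, against 12 of 19 that did not pass the test and 1 of 3 that were raised.

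Over the 10 comparisons with DMSO, most calls among these genes came with pacritinib at 4 h (18 genes), ruxolitinib at 48 h (9 genes) and pacritinib at 48 h (7 genes). With pacritinib at 4 h, 35% of the 40 genes were lower and 10% higher, against 17.4% and 13.1% of all tested genes. For ruxolitinib at 48 h the shares were 2.5% lower and 20% higher, against 13.2% and 12.5%. For pacritinib at 48 h they were 12.5% and 5%, against 10.1% and 8.26%. A gene was called where its adjusted p from edgeR's quasi-likelihood test, with Benjamini-Hochberg adjustment over all tested genes, was under 0.05. With at least 1 inhibitor 20 of the 40 genes (50%) were called at 4 h and 15 (37.5%) at 48 h, against 34.5% and 36.3% of all tested genes. Over both times 24 of the 40 (60%) were called with at least 1 inhibitor, against 53.1% of all tested genes, so that the shares at 48 h and over both times were near the background. The other 16 genes were called in none of the 10 comparisons. They include MCM2, MCM4, MCM6 and MCM7 of the helicase ring, CDC45, PCNA, the catalytic subunits POLA1, POLD1 and POLE, and TYMS. No gene was lowered by more than 2 of the inhibitors at either time, nor raised by more than 2. The comparisons at one time share the same 2 DMSO libraries. Groups of 2 libraries often failed to overlap also for genes that were not called, so a lack of overlap alone does not set a gene apart.

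**Figure D2:**
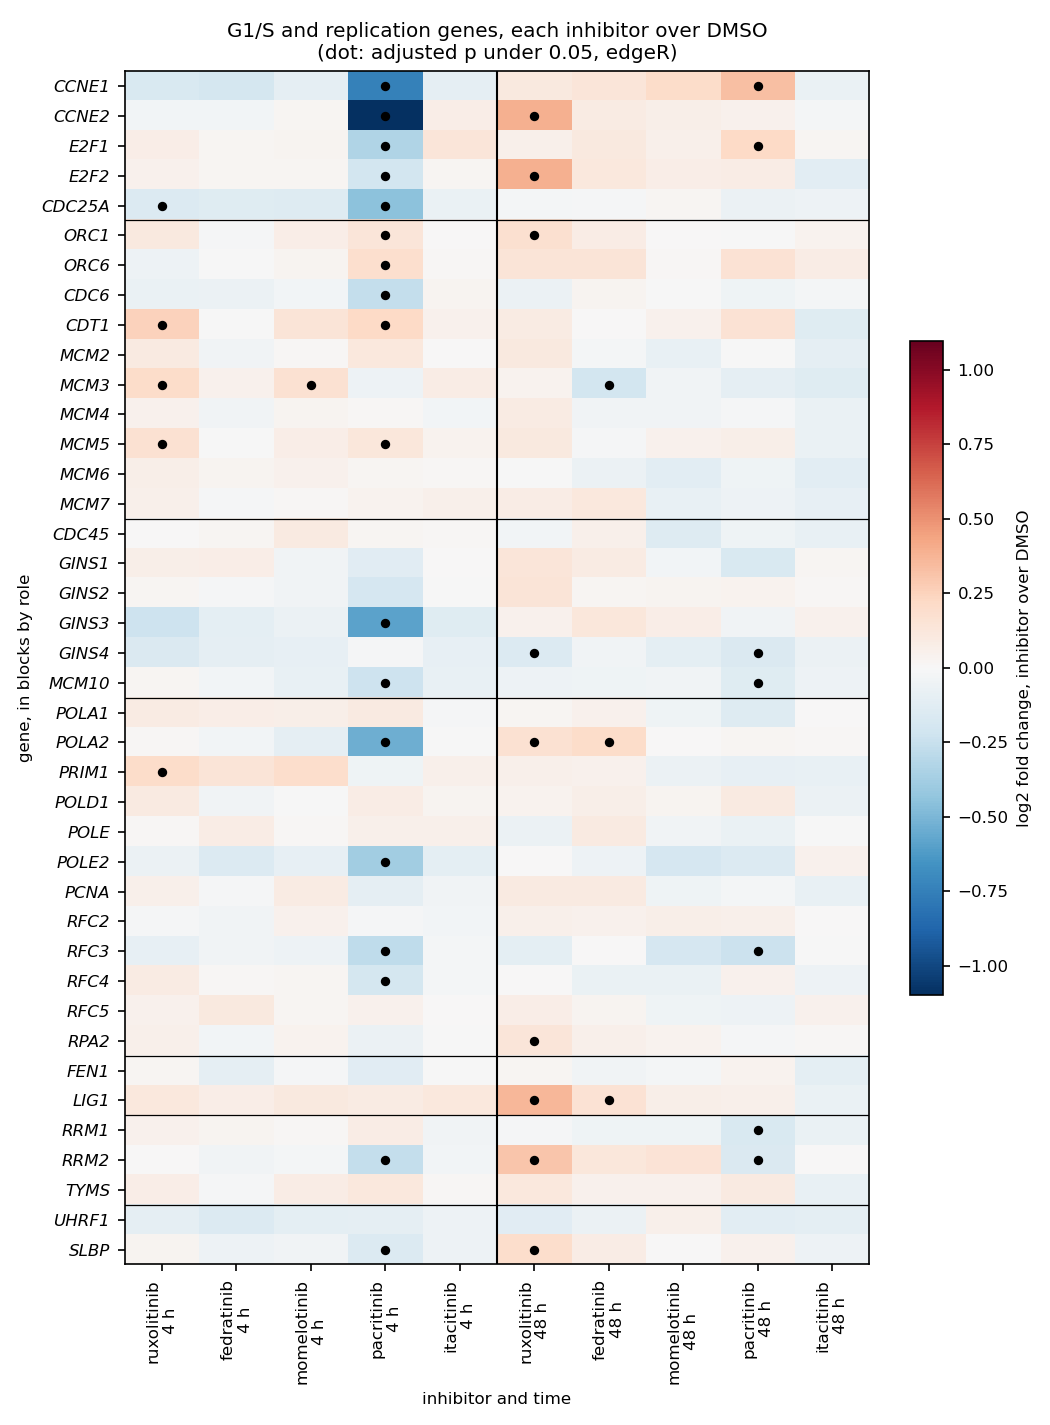
Log2 fold change of each of the 40 genes, grouped by role, for the 5 inhibitors against DMSO at 4 h and at 48 h, with called genes marked. The lowest value is that of CCNE2 with pacritinib at 4 h (-1.10) and the highest that of E2F2 with ruxolitinib at 48 h (0.39).

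After 4 h of pacritinib 14 of the 40 genes (35%) were lower and 4 (10%) were higher, against 17.4% and 13.1% of all tested genes. CCNE2 and CCNE1 had the largest decreases and all 5 G1/S regulators were called lower, while 5 of the 6 MCM ring genes were not called. The median log2 fold change of the 40 genes was -0.06, against 0.01 for all tested genes. Bulk RNA cannot tell fewer cells in the phase that expresses these genes from less RNA per cell. Beside these values, 6 of 13 erythroid and megakaryocytic markers were higher and 1 was lower, with a summed level of 4670 and 4780 CPM, against 4040 and 4100 CPM in DMSO, and their part in the result was not tested.

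The cyclin E genes fell most. CCNE2 (GRCh38 chromosome 8, 94879770 to 94896678) had 6.66 and 5.33 CPM in the pacritinib libraries, against 11.9 and 13.6 CPM in DMSO. Both pacritinib libraries were well below both DMSO libraries, with a log2 fold change of -1.10 ± 0.12 (SE, adjusted p = 8.51e-09). CCNE1 (chromosome 19, 29811898 to 29824308) had 9.76 and 11.8 CPM with pacritinib, against 17.5 and 18.6 CPM in DMSO. The groups did not overlap and the log2 fold change was -0.75 ± 0.09 (adjusted p = 1.82e-07). In the GENCODE 29 annotation 37.1% of the CCNE2 exon bases are overlapped on the other strand by genes including INTS8, and whether reads were counted by strand is not stated for these counts.

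The remaining regulators moved the same way by smaller amounts. CDC25A (chromosome 3, 48157146 to 48188402), the phosphatase that removes inhibitory phosphates from CDK2, had 131 and 122 CPM with pacritinib, against 173 and 173 CPM in DMSO. That was a decrease in both libraries, with a log2 fold change of -0.45 ± 0.05 (adjusted p = 6.95e-09), the lowest p among the 40 genes. E2F1 (chromosome 20, 33675683 to 33686404), an activating E2F factor, had 89.8 and 81.3 CPM with pacritinib, against 106 and 109 CPM in DMSO. Its groups were apart, at a log2 fold change of -0.33 ± 0.06 (adjusted p = 0.000101). E2F2 (chromosome 1, 23506430 to 23531220), another activating factor, had 62.3 and 62.2 CPM with pacritinib, against 72.4 and 71.0 CPM in DMSO, a log2 fold change of -0.20 ± 0.05 (adjusted p = 0.00349).

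**Figure D3:**
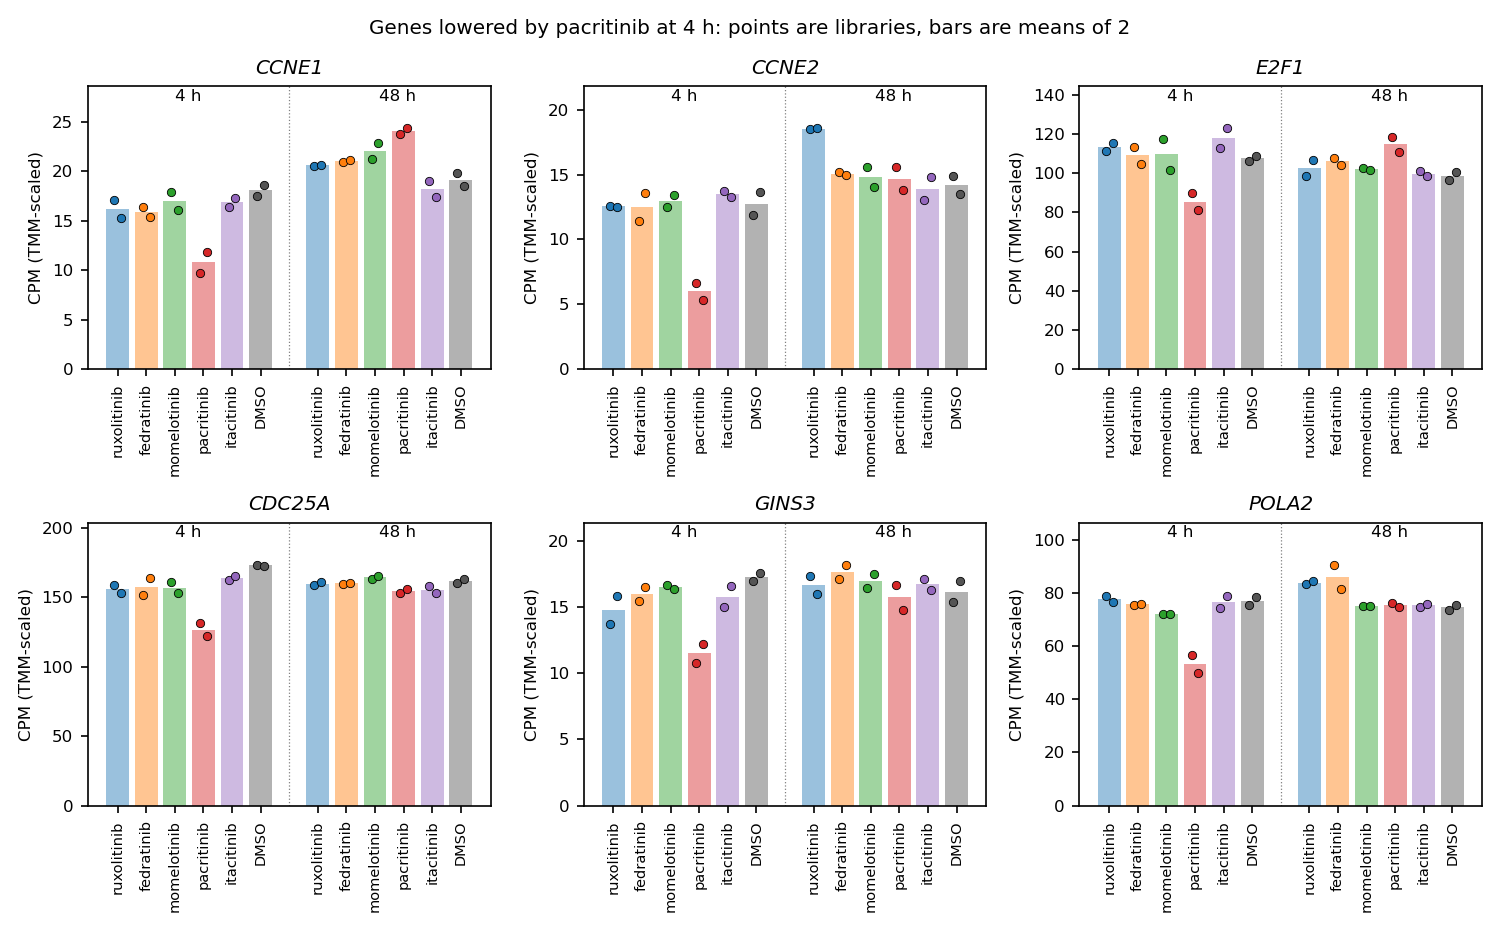
CPM of 6 genes lowered by pacritinib at 4 h in all 24 libraries, with points for libraries and bars for the mean of 2. The 2 pacritinib libraries at 4 h lie below the DMSO libraries in each panel, as for CCNE2 with 6.66 and 5.33 CPM, against 11.9 and 13.6 CPM in DMSO.

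Origin licensing genes went in both directions with pacritinib at 4 h: of 10 genes, 1 fell and 4 rose. CDC6, the licensing ATPase, had 74.1 and 71.5 CPM with pacritinib, against 84.6 and 89.3 CPM in DMSO, below both controls (log2 fold change -0.26 ± 0.05, adjusted p = 0.000231). Its partner CDT1 had 219 and 208 CPM with pacritinib, against 186 and 180 CPM in DMSO, above both controls. The log2 fold change of CDT1 was 0.22 ± 0.06 (adjusted p = 0.00461), and its call was lost without DMSO replicate 2 (adjusted p = 0.0547) or pacritinib replicate 1 (adjusted p = 0.0713). ORC6 and ORC1, subunits of the origin recognition complex, rose by small amounts, with log2 fold changes of 0.18 ± 0.06 (adjusted p = 0.0241) and 0.13 ± 0.05 (adjusted p = 0.0449). ORC6 had 45.1 and 47.2 CPM with pacritinib, against 40.1 and 41.2 CPM in DMSO. ORC1 had 87.4 and 87.8 CPM with pacritinib, against 80.8 and 79.3 CPM in DMSO, so that neither gene's groups overlapped.

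MCM5 was the only one of the 6 helicase ring genes called, at a log2 fold change of 0.12 ± 0.05 (adjusted p = 0.0442). The other 5 had log2 fold changes between -0.05 for MCM3 and 0.11 for MCM2. For MCM4 the 95% interval of the log2 fold change was -0.07 to 0.09. The calls of MCM5 and ORC1 were lost in all 4 fits that left out 1 library, with adjusted p from 0.106 to 0.162 for MCM5 and from 0.123 to 0.209 for ORC1, and that of ORC6 in 3 of 4, without DMSO replicate 1 (0.155), DMSO replicate 2 (0.0689) or pacritinib replicate 2 (0.165).

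Among the 6 helicase activation genes, GINS3 and MCM10 were lower with pacritinib at 4 h. GINS3 had 10.8 and 12.2 CPM with pacritinib, against 17.0 and 17.6 CPM in DMSO. Both pacritinib values were lower, by 33.5% on the fitted scale (log2 fold change -0.59 ± 0.09, adjusted p = 1.22e-05). MCM10, which helps the helicase leave the origin, had 95.8 and 99.9 CPM with pacritinib, against 116 and 114 CPM in DMSO, a log2 fold change of -0.23 ± 0.04 (adjusted p = 0.000115). The other GINS subunits GINS1, GINS2 and GINS4 and the helicase cofactor CDC45 were not called.

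Of 12 genes for polymerases, the clamp and its loader, 4 were lower and none was higher with pacritinib at 4 h. POLA2 (chromosome 11, 65261762 to 65305589), the B subunit of polymerase alpha, had 56.8 and 49.8 CPM with pacritinib, against 75.6 and 78.4 CPM in DMSO. The pacritinib libraries stood clearly below, at a log2 fold change of -0.53 ± 0.06 (adjusted p = 1.25e-08). In the annotation 35.1% of the POLA2 exon bases are shared with AP000944.2 on the same strand. POLE2, the second subunit of polymerase epsilon, had 14.2 and 15.3 CPM with pacritinib, against 19.9 and 18.7 CPM in DMSO, a log2 fold change of -0.38 ± 0.09 (adjusted p = 0.00086). The clamp loader subunits RFC3 and RFC4 fell by 0.28 ± 0.05 (adjusted p = 0.000161) and 0.19 ± 0.06 (adjusted p = 0.022) on the log2 scale. The RFC4 call was gone when DMSO replicate 2 (adjusted p = 0.27) or pacritinib replicate 1 (adjusted p = 0.166) was left out. PCNA, with 139 and 130 CPM with pacritinib against 139 and 150 CPM in DMSO, had overlapping groups and was not called (adjusted p = 0.147).

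RRM2 (chromosome 2, 10120698 to 10131419), the small subunit of ribonucleotide reductase whose level follows S phase, had 343 and 352 CPM with pacritinib at 4 h, against 411 and 425 CPM in DMSO. It was lower in both libraries, with a log2 fold change of -0.27 ± 0.04 (adjusted p = 8.1e-06). In the annotation AC007240.1 covers 20.2% of the RRM2 exon bases on the same strand. RRM1, the large subunit, and TYMS were not called, at log2 fold changes of 0.08 and 0.12. SLBP, which binds the stem-loop of histone mRNAs, had 149 and 145 CPM with pacritinib, against 161 and 165 CPM in DMSO (log2 fold change -0.15 ± 0.05, adjusted p = 0.0192). The SLBP call was lost without DMSO replicate 2 (adjusted p = 0.145) or pacritinib replicate 2 (adjusted p = 0.171). The 12 genes CDC25A, CCNE2, POLA2, CCNE1, RRM2, GINS3, E2F1, MCM10, RFC3, CDC6, POLE2 and E2F2 kept their call whichever of the 4 libraries was left out.

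Genes that act beside these 40 were also called with pacritinib at 4 h, where 17.4% of all tested genes were lower and 13.1% higher. Of 41 other replication and S-phase genes, 18 were lower and 6 higher with pacritinib, with a median log2 fold change of -0.11. The members with the lowest p were lower: DSCC1, which belongs to an alternative clamp loader (-0.56 ± 0.06, adjusted p = 1.12e-08), CLSPN, an adaptor of the replication checkpoint (-0.47 ± 0.05, adjusted p = 6.01e-08), and ATAD5, which unloads PCNA (-0.64 ± 0.08, adjusted p = 1.25e-07). Of 30 G1 cyclins, kinases, inhibitors and E2F or pocket protein genes, 28 were tested, 8 were lower and 4 higher, with a median of -0.06. The repressor E2F7 was lower at -0.83 ± 0.09 (adjusted p = 2.25e-08) and the CDK inhibitor CDKN1B was higher at 0.43 ± 0.07 (adjusted p = 9.18e-06). CDKN1A, another CDK inhibitor, was low in all libraries, with 2.36 and 2.30 CPM with pacritinib, against 5.38 and 4.74 CPM in DMSO (-1.11 ± 0.18, adjusted p = 1.33e-05). Of 26 genes of G2 and mitosis, 6 were lower and 5 higher, with a median of 0.00.

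Ruxolitinib at 4 h raised 4 of the 40 genes and lowered 1, against 3.42% and 5.04% of all tested genes, with a median log2 fold change of 0.05. MCM3 (chromosome 6, 52264009 to 52284881) had 486 and 471 CPM with ruxolitinib, against 411 and 422 CPM in DMSO. Both ruxolitinib values were higher, and the log2 fold change was 0.20 ± 0.04 (adjusted p = 0.00137). CDT1 had 229 and 208 CPM with ruxolitinib, against 186 and 180 CPM in DMSO (0.25 ± 0.06, adjusted p = 0.00497). MCM5 had 448 and 427 CPM with ruxolitinib, against 389 and 388 CPM in DMSO (0.17 ± 0.05, adjusted p = 0.0151), so each of these licensing genes stood above its controls. PRIM1, the catalytic subunit of primase, was higher at 0.20 ± 0.06 (adjusted p = 0.0468), with 16.2% of its exon bases shared on the same strand with NACA or AC117378.1. CDC25A had 159 and 153 CPM with ruxolitinib, against 173 and 173 CPM in DMSO (-0.15 ± 0.05, adjusted p = 0.0428). MCM3 alone kept its call whichever library was left out. CDC25A and PRIM1 lost theirs in all 4 such fits (adjusted p from 0.0887 to 0.331 and from 0.125 to 0.291), CDT1 without DMSO replicate 2 (0.0737) or ruxolitinib replicate 1 (0.183), and MCM5 without DMSO replicate 1 (0.103), DMSO replicate 2 (0.0959) or ruxolitinib replicate 1 (0.231).

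With momelotinib at 4 h MCM3 was the single gene called, and it was higher. Of all tested genes 2.21% were higher and 3.79% lower. MCM3 had 470 and 463 CPM with momelotinib, against 411 and 422 CPM in DMSO, a log2 fold change of 0.16 ± 0.04 (adjusted p = 0.013). The call was lost without DMSO replicate 1 (adjusted p = 0.176), DMSO replicate 2 (adjusted p = 0.0551) or momelotinib replicate 1 (adjusted p = 0.0876). Fedratinib and itacitinib at 4 h gave 0 called genes of 40 in edgeR's quasi-likelihood test, against 1.59% and 0.778% of all tested genes. At an unadjusted p under 0.05 there were 4 genes with fedratinib and 3 with itacitinib, and DESeq2 called 1 with fedratinib and 0 with itacitinib. Shares of all tested genes were not computed for the unadjusted p or for DESeq2. The log2 fold changes of the 40 genes lay between -0.19 and 0.14 with fedratinib and between -0.13 and 0.13 with itacitinib.

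Pacritinib was set against ruxolitinib and momelotinib at 4 h, and ruxolitinib against itacitinib, with p-values adjusted within each pair over all genes. CCNE2 was lower with pacritinib than with ruxolitinib, at a log2 difference of -1.07 ± 0.12 (adjusted p = 3.43e-08), with 6.66 and 5.33 CPM with pacritinib against 12.6 and 12.5 CPM with ruxolitinib. Over the 40 genes, 20 were lower and 2 higher with pacritinib than with ruxolitinib, against 14.5% and 11.1% of all tested genes, and 12 were called without pacritinib replicate 2. Pacritinib against momelotinib gave 16 lower and 0 higher, against 12.8% and 7.96% of all tested genes, with CCNE2 at -1.12 ± 0.12 (adjusted p = 2.17e-08) and POLA2 at -0.44 ± 0.06 (adjusted p = 1.38e-06). Pacritinib is a macrocycle, whereas ruxolitinib and itacitinib share a pyrrolopyrimidine ring system. Ruxolitinib against itacitinib gave 1 called gene at 4 h, against 2.29% of all tested genes higher and 3.61% lower. It was CDT1, with 229 and 208 CPM with ruxolitinib and 186 and 192 CPM with itacitinib (0.21 ± 0.06, adjusted p = 0.0344), a call lost without itacitinib replicate 1, itacitinib replicate 2 or ruxolitinib replicate 1. For E2F2 in that pair the 95% interval of the log2 difference was -0.08 to 0.13, and for CCNE2 it was -0.33 to 0.11.

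At 48 h the inhibitor with the most called genes was ruxolitinib, and they went up: 8 of the 40 (20%) were higher and 1 (2.5%) was lower, against 12.5% and 13.2% of all tested genes. The median log2 fold change of the 40 genes was 0.06, against 0.01 for all tested genes. The genes were spread over the roles, from E2F2 and CCNE2 to LIG1, RRM2 and SLBP. Beside them 10 of 13 erythroid and megakaryocytic markers were higher and 2 lower, with a median log2 fold change of 0.52 and a summed level of 5630 and 5650 CPM, against 3950 and 3960 CPM in DMSO. Their part in the result was not tested.

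E2F2 had 85.5 and 91.9 CPM with ruxolitinib at 48 h, against 67.9 and 67.6 CPM in DMSO. Both ruxolitinib libraries were above every other library of the series, at a log2 fold change of 0.39 ± 0.05 (adjusted p = 7.54e-07). CCNE2 had 18.5 and 18.6 CPM with ruxolitinib, against 14.9 and 13.5 CPM in DMSO (0.39 ± 0.10, adjusted p = 0.00506). CCNE1, with 20.6 and 20.7 CPM with ruxolitinib against 19.9 and 18.5 CPM in DMSO, was not called. LIG1 (chromosome 19, 48115445 to 48170603), the ligase that seals lagging strand fragments, had 122 and 125 CPM with ruxolitinib, against 97.2 and 95.4 CPM in DMSO. Its groups were far apart relative to their spread, with a log2 fold change of 0.36 ± 0.04 (adjusted p = 1.06e-07), the lowest p of the 40 genes in this comparison.

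RRM2 had 490 and 493 CPM with ruxolitinib at 48 h, against 394 and 401 CPM in DMSO, an increase of 23.6% (log2 fold change 0.31 ± 0.04, adjusted p = 6.6e-07). SLBP had 169 and 179 CPM with ruxolitinib, against 154 and 151 CPM in DMSO (0.19 ± 0.05, adjusted p = 0.0034). ORC1 had 82.7 and 79.9 CPM with ruxolitinib, against 69.3 and 74.7 CPM in DMSO (0.18 ± 0.05, adjusted p = 0.00929). These 3 genes did not overlap their controls, but neither did many of the 40 genes that were not called. POLA2 and RPA2, a subunit of the single-strand binding protein RPA, rose by 0.17 ± 0.06 (adjusted p = 0.0253) and 0.13 ± 0.04 (adjusted p = 0.0221). GINS4 was the gene that fell, with 71.4 and 66.3 CPM with ruxolitinib, against 77.1 and 76.0 CPM in DMSO (-0.15 ± 0.05, adjusted p = 0.0247). Genes on the other strand overlap 23.6% of the GINS4 exon bases.

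Leaving out single libraries left the calls of LIG1, RRM2 and E2F2 at 48 h with ruxolitinib in place in all 4 fits. The CCNE2 call was lost without DMSO replicate 2 (adjusted p = 0.0944), that of SLBP without ruxolitinib replicate 2 (0.0925), ORC1 without DMSO replicate 1 (0.206) or ruxolitinib replicate 1 (0.116), GINS4 without DMSO replicate 1 (0.13), DMSO replicate 2 (0.0713) or ruxolitinib replicate 2 (0.298), and POLA2 and RPA2 in all 4 fits (adjusted p from 0.0711 to 0.17 and from 0.0615 to 0.19).

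**Figure D4:**
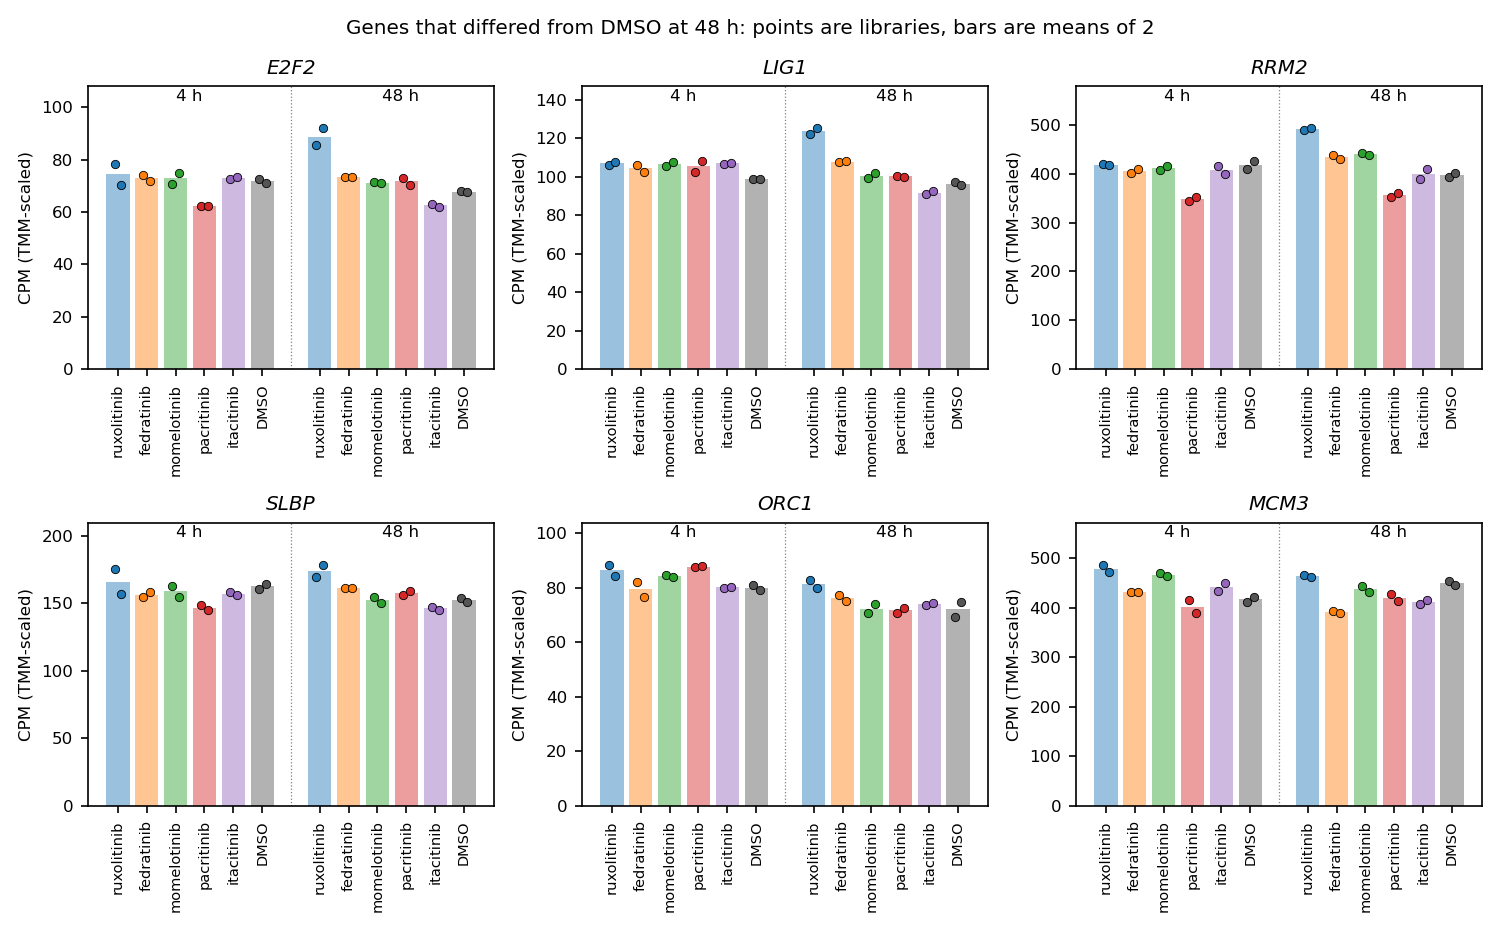
CPM of 6 genes in all 24 libraries, with points for libraries and bars for the mean of 2. At 48 h E2F2, LIG1, RRM2, SLBP and ORC1 are highest with ruxolitinib, and MCM3 is lowest with fedratinib at 392 and 390 CPM.

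The D-type cyclins CCND2 and CCND1, which act with CDK4 and CDK6 before cyclin E, fell with ruxolitinib at 48 h. CCND2 had 271 and 262 CPM with ruxolitinib, against 581 and 581 CPM in DMSO (-1.12 ± 0.05, adjusted p = 1.66e-17). CCND1 had 6 and 2 counts with ruxolitinib, against 186 and 171 counts in DMSO, and was called lower (adjusted p = 2.11e-13). CDKN1B was higher at 0.44 ± 0.07 (adjusted p = 7.42e-06), and TFDP1, the dimer partner of E2F factors, at 0.26 ± 0.05 (adjusted p = 6.95e-05). Over the 28 tested genes of that list 4 were lower and 8 higher, against 13.2% and 12.5% of all tested genes. Of the 41 other replication and S-phase genes, 3 were lower and 11 higher with a median of 0.04. Of the 26 genes of G2 and mitosis, 6 were lower and 4 higher, with a median of -0.03.

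Pacritinib at 48 h gave fewer calls than at 4 h: 5 of the 40 genes (12.5%) were lower and 2 (5%) higher, near the 10.1% and 8.26% of all tested genes. The median log2 fold change of the 40 genes was -0.02. Of the 13 erythroid and megakaryocytic markers 4 were higher and 1 was lower, with a summed level of 4030 and 4040 CPM with pacritinib, against 3950 and 3960 CPM in DMSO. The cyclin E gene CCNE1 was above its control, with 23.8 and 24.4 CPM with pacritinib, against 19.9 and 18.5 CPM in DMSO (log2 fold change 0.33 ± 0.09, adjusted p = 0.00706). E2F1 was higher too, with 119 and 111 CPM with pacritinib, against 96.3 and 100.4 CPM in DMSO (0.22 ± 0.06, adjusted p = 0.0109). CCNE2 had 15.6 and 13.8 CPM with pacritinib, against 14.9 and 13.5 CPM in DMSO, so that its groups overlapped and it was not called.

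The genes that were lower with pacritinib at 48 h were not among the G1/S regulators. RFC3 had 52.6 and 57.6 CPM with pacritinib, against 64.7 and 65.5 CPM in DMSO (-0.24 ± 0.05, adjusted p = 0.00203). RRM2 had 353 and 361 CPM with pacritinib, against 394 and 401 CPM in DMSO (-0.16 ± 0.04, adjusted p = 0.00784), and RRM1 had 112 and 110 CPM, against 124 and 126 CPM in DMSO (-0.16 ± 0.05, adjusted p = 0.0281). Both subunits of ribonucleotide reductase were thus below their controls. MCM10 had 106 and 105 CPM with pacritinib, against 117 and 115 CPM in DMSO (-0.14 ± 0.04, adjusted p = 0.0262). GINS4 had 67.8 and 69.6 CPM with pacritinib, against 77.1 and 76.0 CPM in DMSO (-0.16 ± 0.05, adjusted p = 0.0303). None of these 7 calls held in all 4 fits that left out a library. RFC3 lost its call without pacritinib replicate 1 (adjusted p = 0.0675), CCNE1 without DMSO replicate 2 (0.118) or pacritinib replicate 2 (0.0637), RRM2 without DMSO replicate 2 (0.0594) or pacritinib replicate 1 (0.0656), E2F1 without DMSO replicate 1 (0.131) or pacritinib replicate 1 (0.184), and RRM1, MCM10 and GINS4 in all 4 fits (adjusted p from 0.0678 to 0.135, from 0.0623 to 0.134 and from 0.0574 to 0.16).

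Among genes beside these 40, 13 of 26 genes of G2 and mitosis were lower with pacritinib at 48 h and 0 were higher, with a median log2 fold change of -0.17. Of all tested genes 10.1% were lower and 8.26% higher. PTTG1, which encodes securin, was lower at -0.32 ± 0.06 (adjusted p = 0.000135), and TOP2A, which untangles DNA, at -0.36 ± 0.07 (adjusted p = 0.000236). The other replication list had 5 lower and 8 higher genes of 41, with a median of -0.05. In the G1 list 6 of 28 tested genes were lower and 0 were higher, with a median of 0.00. CCND1 had 31 and 48 counts with pacritinib, against 186 and 171 counts in DMSO (-2.11 ± 0.25, adjusted p = 1.82e-07).

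The change between the times was tested as the pacritinib effect at 48 h minus that at 4 h, in which 9 of the 40 genes were higher and 1 was lower, against 10.3% and 7.58% of all tested genes. CCNE2 had the largest difference, 1.14 ± 0.16 on the log2 scale (adjusted p = 3.12e-06), followed by CCNE1 with 1.07 ± 0.13 (adjusted p = 2.84e-07). The differences of E2F1, POLA2 and GINS3 were each 0.55, with adjusted p of 2.83e-05, 9.35e-06 and 0.00359. CDC25A differed by 0.38 ± 0.07 (adjusted p = 9.62e-05), so its level with pacritinib, 153 and 156 CPM against 160 and 163 CPM in DMSO, was closer to the control at 48 h. RRM2 was called at both times, and its difference of effects was not called. For RRM1 the difference was -0.25 ± 0.07 (adjusted p = 0.019), the effect at 48 h being the lower one.

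CCNE1, CCNE2, POLA2, E2F1, CDC25A, GINS3 and E2F2 kept this call whichever of the 8 libraries was left out. CDC6 lost it in 5 of 8 fits, RRM1 in 4 of 8 and SLBP in 8 of 8 (adjusted p from 0.0577 to 0.222, from 0.0633 to 0.133 and from 0.0733 to 0.181 where lost).

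**Figure D5:**
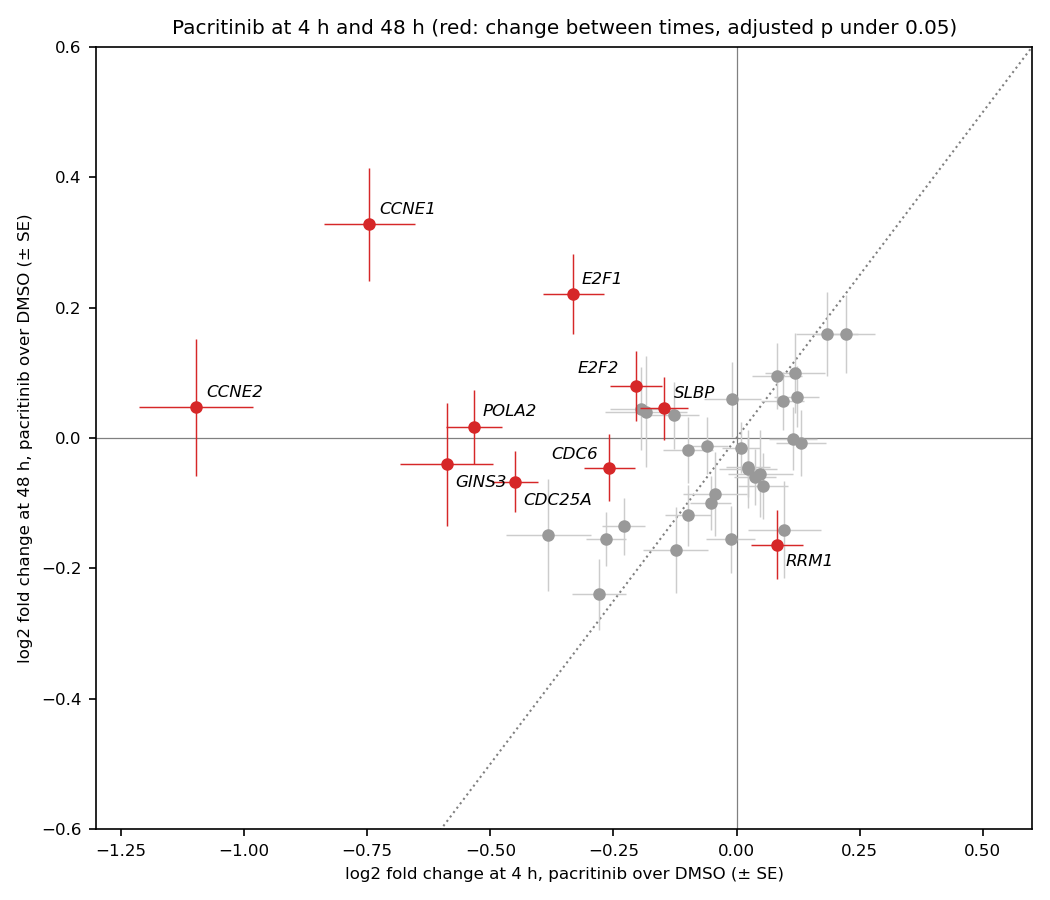
Log2 fold change of the 40 genes with pacritinib against DMSO at 48 h (vertical axis) and at 4 h (horizontal axis), with genes whose effect differed between the times in red and a dotted line where both effects are equal. CCNE2 and CCNE1 lie farthest above the line, at differences of 1.14 and 1.07.

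The same test for ruxolitinib called 3 genes, all with a higher effect at 48 h than at 4 h, against 4.32% of all tested genes with a higher and 4.4% with a lower effect. RRM2 differed by 0.30 ± 0.06 (adjusted p = 0.00055), E2F2 by 0.34 ± 0.08 (adjusted p = 0.00246) and LIG1 by 0.25 ± 0.06 (adjusted p = 0.00881). RRM2 kept this call in all 8 fits that left out a library. E2F2 lost it without ruxolitinib 4 h replicate 2 (adjusted p = 0.0511), and LIG1 without DMSO 48 h replicate 2 (0.0532) or ruxolitinib 48 h replicate 2 (0.0582).

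Fedratinib at 48 h had 3 called genes, 1 lower and 2 higher, against 4.04% and 3.66% of all tested genes. Beside these values, 5 of 13 erythroid and megakaryocytic markers were higher and 0 were lower, with a summed level between 4350 and 4810 CPM, against 3950 and 3960 CPM in DMSO, and their part in the result was not tested. MCM3 had 392 and 390 CPM with fedratinib, against 454 and 445 CPM in DMSO. Both fedratinib libraries were lower, at a log2 fold change of -0.20 ± 0.04 (adjusted p = 0.00218), a call kept whichever library was left out. LIG1 had 108 and 108 CPM with fedratinib, against 97.2 and 95.4 CPM in DMSO (0.16 ± 0.04, adjusted p = 0.0194), and POLA2 had 90.6 and 81.4 CPM, against 73.6 and 75.7 CPM in DMSO (0.20 ± 0.06, adjusted p = 0.021). LIG1 lost its call in all 4 fits that left out a library (adjusted p from 0.0941 to 0.209). POLA2 lost its own without DMSO replicate 1 (0.172), DMSO replicate 2 (0.0997) or fedratinib replicate 1 (0.419). For MCM3 the fedratinib effect at 48 h was below that at 4 h, with a difference of -0.25 ± 0.06 (adjusted p = 0.0108), the 1 gene called in that test, against 2.12% of all tested genes lower and 2% higher. This difference lost its call without DMSO 4 h replicate 1 (adjusted p = 0.0541) or DMSO 48 h replicate 1 (adjusted p = 0.0509).

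Momelotinib and itacitinib at 48 h gave 0 called genes of 40 in edgeR's quasi-likelihood test, against 1.94% and 0.442% of all tested genes. At an unadjusted p under 0.05 there were 7 genes with each, and DESeq2 called 2 with momelotinib and 1 with itacitinib. For neither rule was the share of all tested genes computed, so these counts have no background to be set against. With itacitinib 27 of the 40 log2 fold changes were negative, with a median of -0.06, against 0.00 for all tested genes. RRM2 came closest with momelotinib, with 442 and 439 CPM, against 394 and 401 CPM in DMSO (log2 fold change 0.15 ± 0.04, adjusted p = 0.0541). MCM3 came closest with itacitinib, with 407 and 414 CPM, against 454 and 445 CPM in DMSO (-0.13 ± 0.04, adjusted p = 0.185). In both cases the inhibitor libraries lay outside the range of the DMSO libraries. That held for other genes of the 40 too, none of them called, and how often it held over all tested genes is not given here.

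Time in culture alone gave no called gene: DMSO at 48 h against DMSO at 4 h had 0 of 40 in edgeR's quasi-likelihood test, against 8.16% of all tested genes. At an unadjusted p under 0.05 there were 9, and DESeq2 called 2. The log2 fold changes lay between -0.17 and 0.16. The effects of momelotinib and itacitinib at 48 h minus those at 4 h likewise gave 0 called genes, against 2.33% and 0.0124% of all tested genes. There were 8 and 5 at an unadjusted p under 0.05, and DESeq2 called 2 and 1. Neither here nor for DMSO was the share of all tested genes computed for the unadjusted p or for DESeq2.

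All 10 pairs of inhibitors were compared at 48 h in the same way. Ruxolitinib gave 15 higher and 0 lower genes of 40 against itacitinib (11.7% and 10.2% of all tested genes), 12 higher and 0 lower against pacritinib (12.8% and 11.8%), 11 higher and 1 lower against momelotinib (10.3% and 10.7%), and 6 higher and 1 lower against fedratinib (10.1% and 10.5%). E2F2 was higher with ruxolitinib in each of the 4 pairs. It had 85.5 and 91.9 CPM with ruxolitinib against 63.1 and 61.8 CPM with itacitinib, a log2 difference of 0.51 ± 0.05 (adjusted p = 4.25e-09). LIG1 differed in that pair by 0.43 ± 0.04 (adjusted p = 2.87e-09), with 122 and 125 CPM with ruxolitinib and 90.8 and 92.5 CPM with itacitinib. The licensing genes MCM2, MCM3, MCM4, MCM5, MCM7 and CDT1 were all called in that pair at log2 differences from 0.16 to 0.22. In that pair CDT1 and MCM5 lost their call without itacitinib replicate 2 or ruxolitinib replicate 2, and 10 to 12 genes were called with 1 library left out. UHRF1, which carries DNA methylation through replication, was lower with ruxolitinib than with momelotinib at a log2 difference of -0.18 ± 0.05 (adjusted p = 0.00528), a call lost without momelotinib replicate 2 or ruxolitinib replicate 2. With 1 library left out, 6 or 7 genes were called against momelotinib (6 without either momelotinib library and 7 without either ruxolitinib library), 5 without ruxolitinib replicate 1 and 6 without pacritinib replicate 2 against pacritinib, and 4 without either ruxolitinib library against fedratinib. For E2F1 no difference between ruxolitinib and itacitinib was called, with a 95% interval from -0.08 to 0.17.

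Among the remaining 6 pairs at 48 h, fedratinib gave 5 higher and 0 lower against itacitinib (3.47% and 2.47% of all tested genes), 6 higher and 0 lower against pacritinib (6.48% and 5.52%), and 4 higher and 1 lower against momelotinib (2.87% and 3.81%). MCM7 was higher with fedratinib in all 3, by 0.21, 0.17 and 0.20 on the log2 scale, but in each pair it lost the call in 2 of 4 fits: those without fedratinib replicate 1 or itacitinib replicate 2, without fedratinib replicate 1 or pacritinib replicate 2, and without fedratinib replicate 1 or momelotinib replicate 1. With 1 library left out these pairs had 1 to 5, 3 to 4 and 0 to 2 called genes, with the lowest counts without fedratinib replicate 1 or itacitinib replicate 2, without either pacritinib library, and without fedratinib replicate 1 or momelotinib replicate 1. Pacritinib gave 8 higher and 3 lower against itacitinib (8.14% and 7.47%). CDT1, the gene with the lowest p in that pair, had 205 and 213 CPM with pacritinib against 175 and 166 CPM with itacitinib (0.29 ± 0.06, adjusted p = 0.000733). Without pacritinib replicate 1 this pair had 2 called genes, without itacitinib replicate 2 it had 5 and without itacitinib replicate 1 it had 6. Momelotinib gave 2 higher and 0 lower against pacritinib (4.76% and 3.31%), namely RRM2 at 0.30 ± 0.04 (adjusted p = 5.1e-06) and UHRF1 at 0.17 ± 0.05 (adjusted p = 0.0147), UHRF1 without a call when momelotinib replicate 2 or pacritinib replicate 2 was left out. RRM2 thus had 442 and 439 CPM with momelotinib, against 353 and 361 CPM with pacritinib. Momelotinib against itacitinib gave 0 called genes in edgeR's quasi-likelihood test (1.01% of all tested genes), and for CCNE2 in that pair the 95% interval of the log2 difference was -0.12 to 0.29.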

How the data were processed

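RNA was measured in 24 libraries of HEL cells. The authors deposited whole-number read counts per gene; the submitters' processing notes name bcl2fastq, STAR 2.5.1a, edgeR and the build GRCh38, while for the counting tool, its annotation and its strand setting nothing is stated. Of 34343 rows, 130 repeated an Ensembl ID and were counted once, which left 34213 genes. The gene_counts columns were matched to samples by title.

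Counts were filtered with filterByExpr and scaled by TMM, and 16076 genes were fitted with edgeR 4.0.16 (R 4.3.3), glmQLFit with 1 mean per group over all 24 libraries, so that the 12 groups share 1 estimate of the spread (12 residual degrees of freedom, common biological coefficient of variation 0.0468). Contrasts were tested with the quasi-likelihood F-test, with Benjamini-Hochberg adjustment over all tested genes. A standard error is the absolute log2 fold change divided by the square root of F. CPM values are TMM-scaled. RPKM values divide these by the exon length in GENCODE 29, which also gave the gene coordinates. Libraries had 32153866 to 56618281 counts. Counting error depends on the counts of each gene and is larger where they are few, as for CCNE2 with 260 and 215 counts with pacritinib at 4 h. The 2 libraries per group also limit the precision.

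The 40 members and all lists were chosen with earlier results of these data known. Any member could be named. Values of every library were given for the 3 members with the lowest p in each direction per comparison with DMSO, for the called member with the largest change in each role at 48 h, and for some other members chosen after their values were seen. Of each other list, up to 6 called genes per comparison could be named.

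On simulated counts for 15752 genes, in pacritinib against DMSO at 48 h, the test recovered 56.1% of the 66 tested genes changed 1.25-fold, 64.2% of the 67 changed 1.5-fold and 76.9% of the 65 changed 2-fold, with 6 false calls among 136. Alternatives were DESeq2 1.42.0, RLE scaling, no filter on low counts, a replicate block, a fit on the 12 libraries of one time point, a stricter filter (at least 1 CPM in 6 libraries) and leaving out each library.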

Additional observations from a re-analysis of the deposited data

Results flagged for a closer look

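The effect of an inhibitor against DMSO differed between 48 h and 4 h for 14 results, each by an interaction test in edgeR's quasi-likelihood fit. With pacritinib, the effect at 48 h minus that at 4 h on the log2 scale was 1.14 for CCNE2, 1.07 for CCNE1, 0.55 for E2F1, 0.55 for POLA2, 0.55 for GINS3, 0.38 for CDC25A, 0.28 for E2F2, 0.21 for CDC6, 0.19 for SLBP and -0.25 for RRM1. For the 9 positive ones, the level with pacritinib was below DMSO at 4 h, and at 48 h it was called higher for CCNE1 and E2F1 only. With ruxolitinib, the difference was 0.34 for E2F2, 0.30 for RRM2 and 0.25 for LIG1, and none of these 3 was called at 4 h. With fedratinib it was -0.25 for MCM3. The DMSO libraries of both times enter every one of these differences, so the 14 are not independent. The groups of 2 libraries are too small for a check of single outlying libraries.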

How the results depend on the processing

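Called genes were counted again under another tool, scaling, filter, fit or block, which gave 168 counts over 29 comparisons. Of these, 146 were within 1.5 times the count of the report. No fold change of a called gene turned round in the comparisons with DMSO or between the times. The pairs of inhibitors were not checked for this. With DESeq2 the count was 1 for fedratinib at 4 h, 2 for momelotinib at 4 h, 5 for fedratinib at 48 h, 2 for momelotinib at 48 h, 1 for itacitinib at 48 h, 2 for DMSO at 48 h against 4 h, 2, 2 and 1 for the effects at 48 h minus 4 h of fedratinib, momelotinib and itacitinib, 4 for momelotinib against itacitinib at 48 h and 3 for ruxolitinib against itacitinib at 4 h. Without a filter on low counts it was 3 for ruxolitinib at 4 h, 3 for fedratinib against momelotinib and 1 for momelotinib against itacitinib at 48 h. With the 12 libraries of one time point it was 3 for ruxolitinib at 4 h, 0 for momelotinib at 4 h, 1 for momelotinib at 48 h and 2 for momelotinib against itacitinib at 48 h. With the stricter filter it was 1 for momelotinib at 48 h. The cause was not tested.

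The replicate numbers are shared by all groups, but same-numbered libraries did not deviate together (correlations of their deviations from -0.0377 to 0.0413). With the replicate block the count was 1 for momelotinib at 48 h, 1 for the momelotinib effect at 48 h minus 4 h and 2 for ruxolitinib against itacitinib at 4 h, and it stayed within 1.5 times in the other comparisons.

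With 1 library left out the counts ran from 1 to 3 for ruxolitinib, 0 to 1 for momelotinib and 12 to 15 for pacritinib at 4 h. At 48 h they ran from 5 to 6 for ruxolitinib, 1 to 2 for fedratinib and 1 to 3 for pacritinib. For the effects at 48 h minus 4 h they ran from 2 to 4 for ruxolitinib, 0 to 2 for fedratinib and 7 to 9 for pacritinib. For the pairs at 48 h they ran from 4 to 6 for ruxolitinib against fedratinib, 6 to 7 against momelotinib, 5 to 9 against pacritinib and 10 to 12 against itacitinib, from 0 to 2 for fedratinib against momelotinib, 3 to 4 against pacritinib and 1 to 5 against itacitinib, from 1 to 2 for momelotinib against pacritinib and from 2 to 8 for pacritinib against itacitinib. At 4 h they ran from 12 to 17 for pacritinib against ruxolitinib, 13 to 14 against momelotinib and 0 to 1 for ruxolitinib against itacitinib. The remaining lone library of a group is assumed there to vary like the other groups.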
